A study of Mus musculus with 12 samples.

Results

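Stefins and cystatins are inhibitors of papain-like cysteine proteases, and 7 of the 41709 genes in the deposited tables are described here: Csta2, Stfa1, Stfa2, Stfa3 and Stfa2l1, which are stefin A genes, Cstb, which encodes stefin B (cystatin B), and Cst3, which encodes cystatin C. The members were taken by name. Csta2 was chosen by its measured level, which was higher in fl/fl Cre+ than in fl/fl Cre- cells of these libraries, and the other genes as its relatives, so the genotype differences of Csta2 are given as a description without a test. All mice carried CD18 (Itgb2) alleles with a floxed exon 3 on both chromosomes. Cre was driven by the CD11c promoter in fl/fl Cre+ (CD18ΔCD11c) animals and lacking in fl/fl Cre- (CD18fl/fl) controls. Bone marrow was cultured with GM-CSF for 10 days to yield bone marrow-derived dendritic cells (BMDCs), which were left untreated or received 100 ng/mL LPS for 24 h by the labels (overnight by the study's methods), and MHCII+ cells were isolated immunomagnetically. Each of the 4 groups (fl/fl Cre-, fl/fl Cre- 24 h LPS, fl/fl Cre+ and fl/fl Cre+ 24 h LPS) held 3 libraries of poly(A)-selected RNA. The labels do not state whether the libraries of a group came from separate animals or cultures, so p-values measure the spread between these libraries, which may be technical.

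Stefins are small proteins without a signal peptide that act in the cytosol, whereas cystatin C is secreted. Both block the active site cleft of cathepsins, among them cathepsin S, which trims the invariant chain of MHCII in antigen-presenting cells. Mice have a cluster of stefin A genes on chromosome 16 that arose by duplication, and several of them are known as transcripts of neutrophils and their precursors.

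The stefin A genes are so alike that short reads may be shared between them. The coding sequences of Csta2 and Cstdc4, a further stefin A gene of the cluster, were 96.9% identical (282 of 291 aligned bases), and those of Stfa2 and Stfa2l1 96.4%, whereas Csta2 and Stfa2, Stfa3 or Stfa2l1 were 79.0% to 79.3% identical. To show what a read of 59 bases, the length sequenced, had to tell the copies apart, a stretch of that length of each coding sequence (GENCODE on GRCm39) is given from 5′ to 3′, with the 5 codons of the inhibitory loop (glutamine, any residue, valine, any residue, glycine, found once in each) in capitals.
Csta2: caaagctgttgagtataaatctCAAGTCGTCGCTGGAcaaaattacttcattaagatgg
Cstdc4: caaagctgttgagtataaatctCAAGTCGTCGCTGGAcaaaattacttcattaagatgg
Stfa1: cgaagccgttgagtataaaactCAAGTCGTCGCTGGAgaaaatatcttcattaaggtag
Stfa2: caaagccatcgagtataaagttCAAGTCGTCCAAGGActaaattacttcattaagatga
Stfa2l1: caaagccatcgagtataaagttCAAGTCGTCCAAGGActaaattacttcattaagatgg
Stfa3: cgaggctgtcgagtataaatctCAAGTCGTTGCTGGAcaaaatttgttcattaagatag
Cstb: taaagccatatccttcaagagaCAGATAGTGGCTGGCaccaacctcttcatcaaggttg
Cst3: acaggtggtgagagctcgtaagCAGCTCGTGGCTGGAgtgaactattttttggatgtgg
The stretch of Cstdc4 differed from that of Csta2 at 0 positions, those of Stfa3, Stfa1, Stfa2l1 and Stfa2 at 7, 8, 9 and 10 positions, and those of Cstb and Cst3 at 27 and 31. In Csta2 it spans chr16:36075958-36077616 including an intron, on the forward strand. The stretches of the other genes shown also cross an intron, except that of Stfa1. The Stfa1 stretch lies on contiguous bases (chr16:36100875-36100933) of a longer coding sequence (441 bases). Its 8 differences from Csta2 may thus not all be differences between matching exons. Of the 830 distinct stretches of 59 bases in the annotated transcripts of Csta2, 127 (15.3%) also occurred in another gene, and that gene was Cstdc4 for each of them. For Stfa1, Stfa2 and Stfa2l1 the shared part was 10.4%, 9.81% and 9.90%, and for Stfa3, Cstb and Cst3 it was 0.

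The copies also differ upstream of their first exon. The start of Csta2 in RefSeq and in the deposited coordinates is a distal one, and GENCODE lists a further, proximal start 31530 bases downstream of its distal one (first base of Csta2-204; the protein-coding Csta2-201 begins close to it). The windows of 250 bases before to 50 bases after a start are shown for the distal start (chr16:36041682-36041981, RefSeq), for the proximal start (chr16:36073118-36073417, read from GRCm39) and for Cstdc4 (chr16:36004332-36004631, RefSeq), all on the forward strand of GRCm39. Capitals mark CACACTCATT, the longest run of bases found in all of 8 other stefin A copies compared.
Csta2, distal start: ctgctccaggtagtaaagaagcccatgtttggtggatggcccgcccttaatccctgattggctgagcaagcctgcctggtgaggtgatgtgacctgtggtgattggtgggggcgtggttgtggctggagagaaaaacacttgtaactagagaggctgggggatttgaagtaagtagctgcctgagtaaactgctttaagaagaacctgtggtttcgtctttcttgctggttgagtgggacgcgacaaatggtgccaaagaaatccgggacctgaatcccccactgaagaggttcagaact
Csta2, proximal start: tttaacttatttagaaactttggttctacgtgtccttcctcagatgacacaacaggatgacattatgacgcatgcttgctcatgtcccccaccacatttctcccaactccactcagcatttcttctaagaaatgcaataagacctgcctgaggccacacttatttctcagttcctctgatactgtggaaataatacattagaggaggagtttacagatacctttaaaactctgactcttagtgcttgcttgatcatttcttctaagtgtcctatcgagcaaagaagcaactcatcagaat
Cstdc4: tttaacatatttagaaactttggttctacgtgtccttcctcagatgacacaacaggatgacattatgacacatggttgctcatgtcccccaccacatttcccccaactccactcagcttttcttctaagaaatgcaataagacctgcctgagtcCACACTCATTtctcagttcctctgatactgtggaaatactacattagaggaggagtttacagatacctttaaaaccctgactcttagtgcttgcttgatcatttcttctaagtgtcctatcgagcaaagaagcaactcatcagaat
The distal window of Csta2 was 41.6% to 46.9% identical to those of the 8 other copies, which were 42.6% to 90.5% (median 67.5%) identical among themselves. The proximal window was 97.0% identical to the Cstdc4 window and 44.8% to the distal one. The run in capitals (searched as written, on both strands) was in neither window of Csta2 and in 37 of 32851 RefSeq windows (0.113%), which is a description of letters and says nothing about a factor. The tables count reads per gene, so the reads of the distal and the proximal start of Csta2 cannot be told apart.

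**Figure D1:**
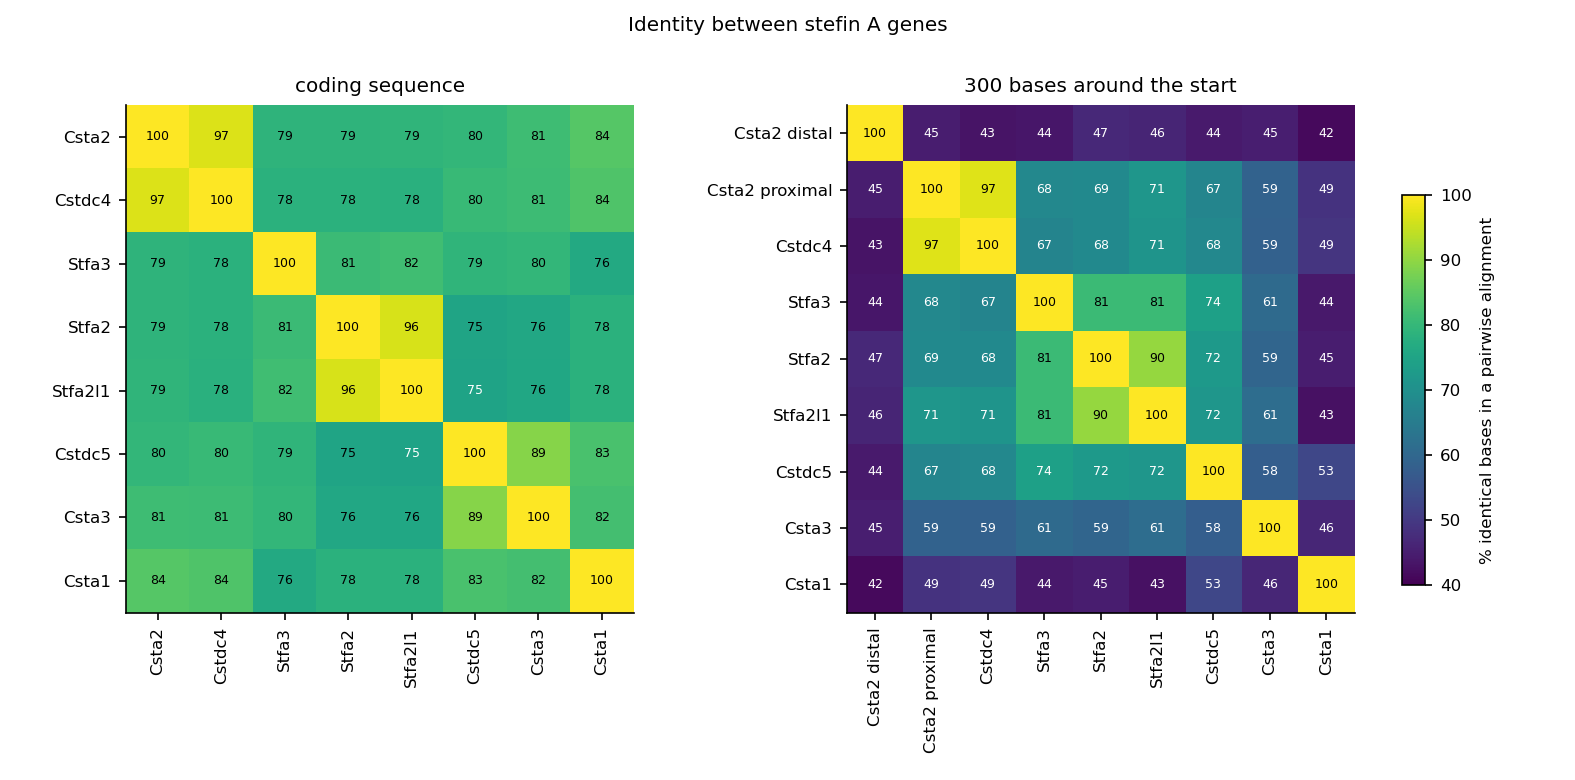
Percentage of identical bases in pairwise alignments of coding sequences (left) and of 300 bases around annotated starts (right) between stefin A genes; Stfa1 is left out because its reference transcript is longer. Csta2 and Cstdc4 share 96.9% of coding bases and 97.0% of the proximal start, while the distal start of Csta2 reaches at most 46.9% with another gene.

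Few reads were ambiguous. The tables give total gene reads, including those with several mapping positions, and unique gene reads. For Csta2, unique reads made up between 95.8% (exact 95% interval 95.3% to 96.2%, fl/fl Cre+ replicate 3) and 98.3% (98.0% to 98.7%, fl/fl Cre+ replicate 1) of total reads, and 97.0% over all 12 libraries (60820 of 62715 reads). For Cstdc4 the share ranged from 94.7% to 98.1%. All reads of Stfa2, Stfa3, Cstb and Cst3 were unique, as were 677 of 681 reads of Stfa2l1 and 314 of 320 reads of Stfa1. Reads of PCR-amplified libraries are not independent molecules where no molecular identifiers are used, so such intervals cover counting error only. Fits on unique reads differed little from those on total reads: for Csta2 the log2 fold change between genotypes after LPS was 2.55 with either, and for LPS in fl/fl Cre+ cells it was 1.40 with total and 1.41 with unique reads.

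Libraries held 29689149 to 34037178 total gene reads, so that 3 reads, taken as the floor, corresponded to 0.0881 to 0.101 CPM (read counts scaled to a common library size). CPM in the following also include TMM factors over all 12 libraries. Itgb2, the floxed gene, ranged from 379 to 420 CPM in untreated fl/fl Cre- and from 120 to 189 CPM in untreated fl/fl Cre+ cells, and from 167 to 267 and 89.7 to 119 CPM after LPS. All 10 dendritic cell markers listed (Itgax, Flt3, Zbtb46, H2-Aa, H2-Ab1, Cd74, Ciita, Ccr7, Ccl22 and Dpp4) had reads in each group, and they summed to 13617 to 35568 CPM. The list holds MHCII genes (H2-Aa and H2-Ab1), and the cells were isolated by MHCII, so this sum does not set dendritic cells apart. Of these 10 markers, 5 had a positive log2 fold change between untreated genotypes and 2 after LPS. With LPS, 6 of 10 were positive in fl/fl Cre- and 3 of 10 in fl/fl Cre+ cells. Summed markers of other cells ranged from 6.36 to 121 CPM for mast cells and basophils, from 0.636 to 138 CPM for B cells and from 0.127 to 20.3 CPM for T and NK cells. Those of macrophages summed to 1517 to 3898 CPM in untreated and 804 to 1457 CPM in LPS-treated fl/fl Cre- cells. In fl/fl Cre+ cells they summed to 2126 to 3659 and 478 to 876 CPM. The sums were thus lower after LPS without overlap in both genotypes, as were 15.9% and 13.4% of all genes tested. Single macrophage markers differed: 4 of 10 had a positive log2 fold change with LPS in fl/fl Cre- and 3 of 10 in fl/fl Cre+ cells. Among the latter was Marco (5.17, SE 0.84, edgeR adjusted p = 0.0276). The part of macrophages in the LPS differences of Csta2, Cstb and Cst3 was not tested. Replicate 3 stood apart from replicates 1 and 2 in every group. Same-numbered libraries deviated together from their group means (correlations across genes of 0.261 to 0.743), so the replicate number was also fitted as a block. Replicates 1 and 2 also correlated across numbers, at 0.180 to 0.369. For LPS in fl/fl Cre- cells these values (0.284 and 0.328) exceeded that of the same-numbered replicates 2 (0.261). Whether replicates 1 and 2 are paired by number is thus not established by these values. Values with the block are given where they change a call.

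By length-corrected level (RPKM, reads scaled by exon length and by mapped reads), the order was Cst3, Cstb and Csta2, followed by the other 4 members, in each of the 12 libraries. Cst3 had between 1417 and 7584 RPKM, Cstb between 700 and 2456 RPKM, and Csta2 between 24.5 and 664 RPKM. The ranges of Csta2 and Cstb did not overlap, whereas the highest Cstb library exceeded the lowest Cst3 library. Cst3 ranked between 11th and 112th by CPM among all genes, and Csta2 between 353rd and 6517th. Stfa1, Stfa2, Stfa3 and Stfa2l1 stayed at or below 28.5 RPKM, and their order changed from library to library.

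Csta2 (ENSMUSG00000095620, chr16:36041838-36077810) had 29.7, 12.8 and 80.9 CPM in replicates 1, 2 and 3 of fl/fl Cre- cells, and 185, 59.2 and 248 CPM in those of fl/fl Cre+ cells. After LPS the values were 81.8, 63.6 and 78.9 CPM in fl/fl Cre- and 545, 334 and 463 CPM in fl/fl Cre+ cells. The genotypes overlapped in untreated cells, where fl/fl Cre+ replicate 2 lay below fl/fl Cre- replicate 3, and did not overlap after LPS. Within each replicate number the fl/fl Cre+ library was the higher one. The ratio was 6.23, 4.64 and 3.07 in untreated and 6.66, 5.25 and 5.87 in LPS-treated cells.

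These ratios are the values that chose Csta2, and they carry no test. On the log2 scale of the fit, the difference between genotypes was 2.07 (SE 0.76) in untreated and 2.55 (SE 0.29) in LPS-treated cells, and 2.21 (SE 0.20) and 2.53 (SE 0.15) with the replicate block. With an offset for exon length in addition to the block, these differences were 1.40 (SE 0.23) and 1.89 (SE 0.14). Leaving out fl/fl Cre- replicate 3, the highest of its group, raised the value in untreated cells to 2.99 (SE 0.72). Its mean level was 41.1 ± 35.5 CPM (SD, n = 3) in fl/fl Cre- and 164 ± 96.3 CPM (SD, n = 3) in fl/fl Cre+ cells, and 74.8 ± 9.81 CPM (SD, n = 3) and 447 ± 106 CPM (SD, n = 3) after LPS.

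**Figure D2:**
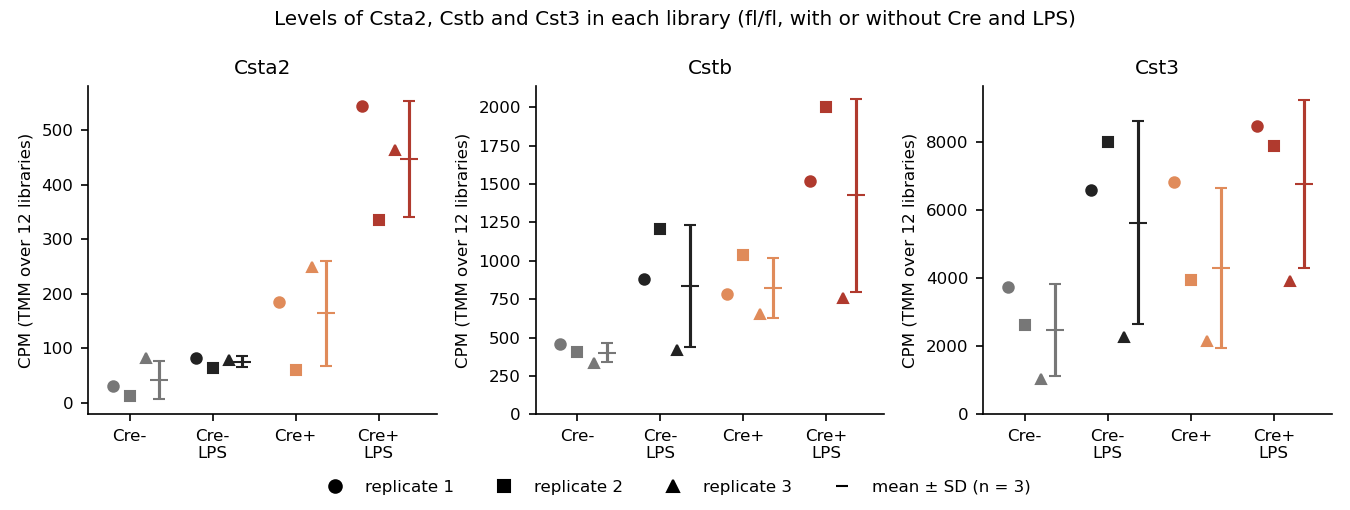
CPM (TMM over 12 libraries) of Csta2, Cstb and Cst3 in each library, with the replicate number as the symbol and the group mean ± SD beside it. The 3 fl/fl Cre+ LPS libraries lie between 334 and 545 CPM of Csta2, above all other libraries, and replicate 3 is the lowest of each group for Cstb and Cst3.

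After LPS, Csta2 was higher in all 3 fl/fl Cre+ libraries than in any untreated fl/fl Cre+ library, with ratios of 2.95, 5.64 and 1.86 by replicate. It was the 1 member without overlap there (14.8% of all genes tested lay higher in this way), and 0 members were in fl/fl Cre- cells (13.6%). It passed the test with the replicate block (log2 fold change 1.60, SE 0.29, edgeR adjusted p = 0.0120) and not without it (1.40, SE 0.50, adjusted p = 0.166). The fl/fl Cre+ LPS libraries had also served to pick Csta2, so this test is not independent of the choice. In fl/fl Cre- cells the ratios were 2.76, 4.98 and 0.975, and the log2 fold change of 0.87 (SE 0.60, adjusted p = 0.416; 1.26, SE 0.46, adjusted p = 0.119 with the block) did not pass. It ranged from 0.44 without fl/fl Cre- replicate 2 to 1.82 without fl/fl Cre- replicate 3 (adjusted p = 0.692 and 0.0704), and it passed in DESeq2 with the block (1.29, adjusted p = 0.0181) and with replicates 1 and 2 only (1.78, adjusted p = 0.000638). The LPS changes in the genotypes differed by 0.58 (SE 0.86, interaction test, adjusted p = 1.00) on the log2 scale, so a difference between them was not detectable with this spread.

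Cstdc4, the copy most like Csta2, had 23.3, 1.30 and 36.1 CPM in fl/fl Cre- and 10.9, 3.60 and 45.0 CPM in fl/fl Cre+ replicates 1, 2 and 3. After LPS it had 1.89, 1.23 and 34.9 CPM and 10.7, 7.72 and 84.2 CPM, respectively. Replicate 3 was thus highest in every group, as it was for Csta2 in both untreated groups, whereas replicate 1 was highest for Csta2 in both LPS groups. The number of Csta2 reads per Cstdc4 read was 2.24 and 2.26 in replicate 3 of untreated and LPS-treated fl/fl Cre- cells, 5.52 and 5.50 in replicate 3 of fl/fl Cre+ cells, and between 43.2 and 51.8 in replicates 1 and 2 of both LPS groups. In untreated cells it was 1.27 and 9.79 in replicates 1 and 2 of fl/fl Cre- and 17.0 and 16.4 in those of fl/fl Cre+ cells. With the block, Cstdc4 was higher in fl/fl Cre+ than in fl/fl Cre- cells after LPS (log2 fold change 2.02, SE 0.29, edgeR adjusted p = 0.0104), which it was not without the block (1.41, SE 1.44, adjusted p = 0.809). With the length offset added to the block it was 1.20 (adjusted p = 0.0461), and without the block it ranged from -0.53 without fl/fl Cre+ LPS replicate 3 to 4.45 without fl/fl Cre- LPS replicate 3 (adjusted p = 0.876 and 0.368). Of the 7 further genes of the locus list found in the tables, Cstdc4 and Cstdc5 had enough reads to be tested. The difference of Cstdc4 between genotypes after LPS was the 1 call among them with the block. Of all genes tested there, 10.1% were called, 6.98% as higher. Whether this difference of Cstdc4 is separate from that of Csta2, which was chosen by its level, was not tested.

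Csta2 supplied most stefin A reads. Summed over 10 stefin A genes of the cluster (the 5 stefin A members, Csta1, Csta3, Cstdc4, Cstdc5 and Cstdc6), its share was lowest in untreated fl/fl Cre- replicate 1, with 32.4% of 3300 reads (exact 95% interval 30.8% to 34.0%), and highest in fl/fl Cre+ LPS replicate 1, with 96.8% of 13887 reads (96.5% to 97.1%). Csta1 had no read in any library. The sum, which does not depend on how reads are split between copies, was 91.6, 18.2 and 118 CPM in fl/fl Cre- and 208, 74.1 and 295 CPM in fl/fl Cre+ cells, and 86.8, 66.2 and 115 CPM and 563, 347 and 550 CPM after LPS. With LPS it rose in fl/fl Cre+ cells with the block (log2 fold change 1.47, SE 0.26, edgeR adjusted p = 0.0104; 1.30, SE 0.49, adjusted p = 0.187 without it). Since Csta2 made up 84.2% to 96.8% of the sum in the fl/fl Cre+ LPS libraries, that test is not independent of the choice of Csta2 either. In fl/fl Cre- cells its log2 fold change was 0.24 (SE 0.62, adjusted p = 0.844), and the genotype differences, which contain Csta2, were 1.40 (SE 0.74) in untreated and 2.42 (SE 0.34) in LPS-treated cells.

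**Figure D3:**
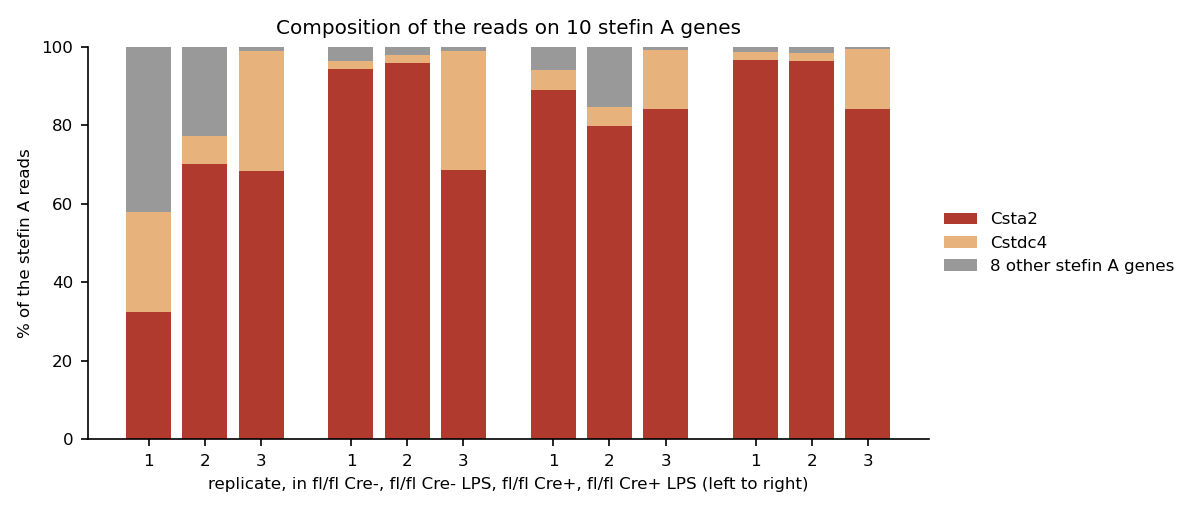
Share of the reads on 10 stefin A genes that fell on Csta2, on Cstdc4 and on the 8 other genes, as stacked bars for each library. Csta2 ranges from 32.4% to 96.8%, and Cstdc4 takes between 15.2% and 30.6% in replicate 3 of each group.

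The other stefin A members were read rarely. Stfa2l1 (ENSMUSG00000059657, chr16:35977181-35982323) had 366, 68 and 13 reads in fl/fl Cre- replicates 1, 2 and 3 and 16, 1 and 3 reads after LPS. In fl/fl Cre+ cells it had 47, 41 and 36 reads, and 32, 29 and 29 after LPS. The fl/fl Cre- libraries spread widely, whereas the fl/fl Cre+ libraries lay close together.
Stfa2l1 fell with LPS in fl/fl Cre- cells in the fit with the block, by 3.94 on the log2 scale (SE 0.75, edgeR adjusted p = 0.0259), and did not pass without it (-4.26, SE 1.47, adjusted p = 0.147). Without fl/fl Cre- replicate 1 the unblocked value was -2.27 (SE 1.38, adjusted p = 0.448). In fl/fl Cre+ cells the change was -0.26 (SE 0.62, adjusted p = 0.861), and the difference between the 2 changes was 4.05 (SE 1.56, adjusted p = 1.00). After LPS the fl/fl Cre+ libraries were all above the fl/fl Cre- libraries (log2 fold change 2.45, SE 1.06, adjusted p = 0.524). Stfa2l1 and Stfa3 were the 2 of 6 members other than Csta2 without overlap between genotypes after LPS, where 9.51% of all genes tested lay higher in this way.

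Stfa3 (ENSMUSG00000054905, chr16:36270899-36275754) had 260, 27 and 18 reads in fl/fl Cre- and 55, 70 and 11 reads in fl/fl Cre+ replicates 1, 2 and 3, and 24, 14 and 25 and 84, 29 and 26 reads after LPS. Stfa1 (ENSMUSG00000071562, chr16:36097313-36105735) had 108, 16 and 8 reads in fl/fl Cre- and 70, 57 and 13 in fl/fl Cre+ cells, and 14, 0 and 7 and 3, 12 and 12 after LPS. Stfa2 (ENSMUSG00000022902, chr16:36224354-36228819) had 141, 0 and 0 reads in fl/fl Cre- and 39, 44 and 2 in fl/fl Cre+ cells, and 16, 12 and 0 and 18, 2 and 3 after LPS. Each of these genes was highest in untreated fl/fl Cre- replicate 1, and none passed edgeR's test on all 6 libraries in any of the 4 comparisons, with or without the block. With replicates 1 and 2 only, Stfa3 fell by 2.60 with LPS in fl/fl Cre- cells (SE 0.88, adjusted p = 0.0289). Stfa2 was at or below 3 reads in 6 of 12 libraries, so no fold change is given for it. For Stfa3 the log2 fold change between genotypes was -0.82 (SE 1.19, edgeR adjusted p = 0.769) in untreated and 1.48 (SE 0.72, adjusted p = 0.572) in LPS-treated cells, where the groups did not overlap. With LPS it was -2.11 (SE 1.08, adjusted p = 0.285) in fl/fl Cre- and 0.20 (SE 0.89, adjusted p = 0.926) in fl/fl Cre+ cells. For Stfa1 the corresponding 4 values were 0.44 (SE 1.14, adjusted p = 0.884), 0.70 (SE 1.33, adjusted p = 0.907), -2.49 (SE 1.45, adjusted p = 0.340) and -2.21 (SE 0.99, adjusted p = 0.258).

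Markers of neutrophils were high in the library in which these low-level genes were high. The 15 neutrophil markers listed summed to 1808, 535 and 177 CPM in fl/fl Cre- replicates 1, 2 and 3, and to 111 to 450 CPM in all other libraries. Stfa1, Stfa2, Stfa3, Stfa2l1 and Cstdc5 together had 38.0, 4.11 and 1.12 CPM in the same 3 libraries, and 1.17 to 11.7 CPM in the others. Both sums were highest in untreated fl/fl Cre- replicate 1. Replicate 3 was lowest for both sums in untreated fl/fl Cre+ cells (111 and 1.97 CPM) and in fl/fl Cre+ LPS cells (116 and 2.36 CPM). The sums did not go together in fl/fl Cre- LPS cells. There replicate 3 had the highest marker sum (367 CPM against 198 and 149 CPM) and the lowest sum of the 5 genes (1.17 CPM against 3.05 and 1.41 CPM). In fl/fl Cre- replicate 3, 5 of the 15 markers were at 0 reads, and Retnlg, Mpo, Elane and Cxcr2 were at 0 in all 3 fl/fl Cre+ LPS libraries. Lcn2, another of the 15, rose with LPS in fl/fl Cre+ cells (log2 fold change 4.20, SE 0.57, edgeR adjusted p = 0.0197), whereas Mmp8 fell (-1.98, SE 0.42, adjusted p = 0.0473). Of the 10 neutrophil markers tested there, 2 had a positive value, and the median was -1.77. With LPS in fl/fl Cre- cells, 2 of 9 were positive (median -3.25). Between genotypes, 0 of 12 were positive in untreated cells (median -2.23, all genes -0.05) and 2 of 8 after LPS (median -0.79, all genes -0.11). With the block, 4 of the 12 (Csf3r, Lcn2, Mmp8 and Cd177) were called as lower in untreated fl/fl Cre+ cells, against 1051 of 12876 genes. Csta2 was at 29.7 CPM in fl/fl Cre- replicate 1 and highest in the fl/fl Cre+ LPS libraries, where the marker sum was 116 to 165 CPM. The part of neutrophils in the levels of the low-level genes was not tested, and in such bulk samples fewer cells of a type and less RNA per cell cannot be told apart.

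**Figure D4:**
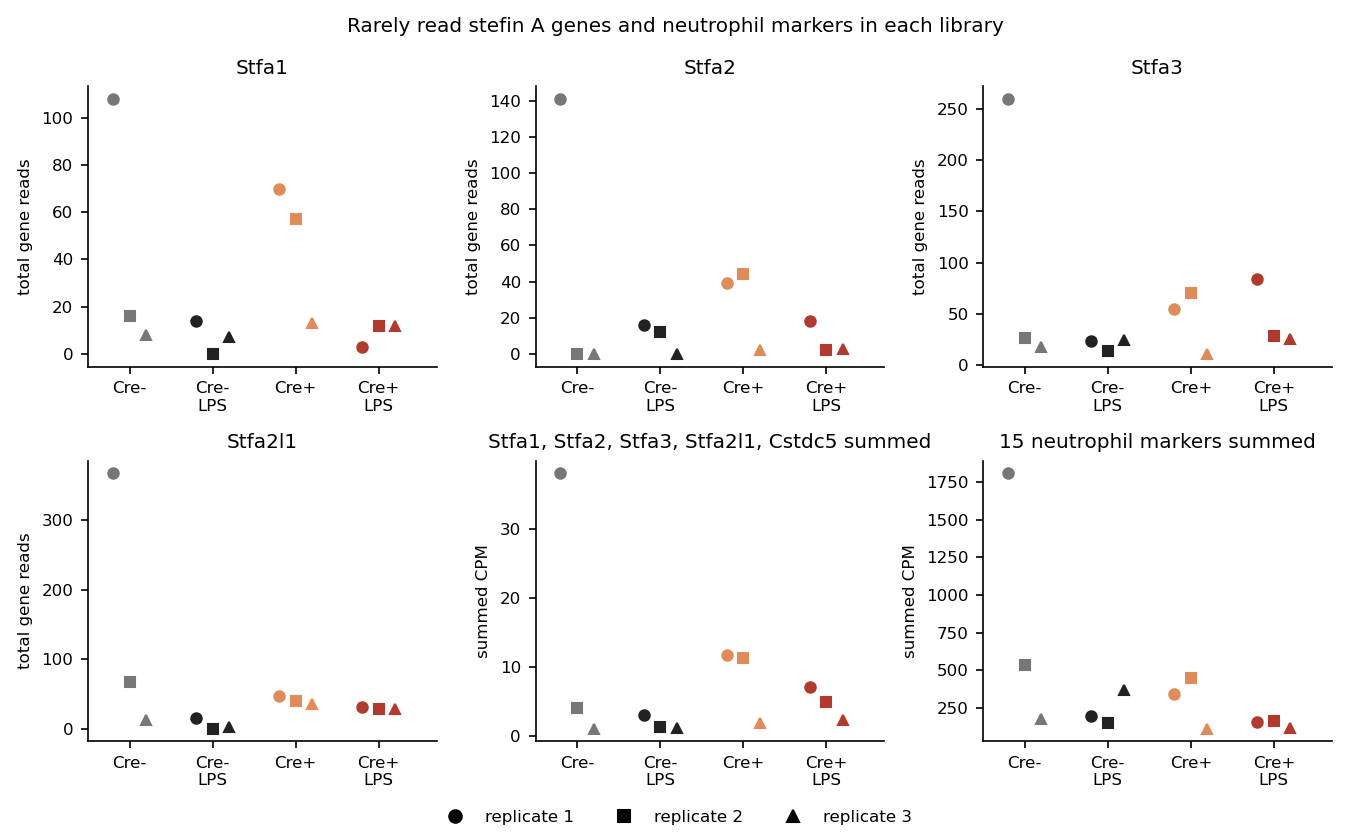
Total gene reads of Stfa1, Stfa2, Stfa3 and Stfa2l1, the summed CPM of 5 low-level stefin A genes, and the summed CPM of 15 neutrophil markers, each point 1 library. Untreated fl/fl Cre- replicate 1 is the highest point of every panel, with 366 reads of Stfa2l1 and a marker sum of 1808 CPM.

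Cstb (ENSMUSG00000005054, chr10:78261503-78263456), encoding the widely expressed stefin B, was higher in each fl/fl Cre+ library than in the same-numbered fl/fl Cre- library. It had 459, 408 and 337 CPM in fl/fl Cre- and 781, 1036 and 655 CPM in fl/fl Cre+ replicates 1, 2 and 3. After LPS it had 881, 1209 and 419 CPM in fl/fl Cre- and 1516, 2001 and 758 CPM in fl/fl Cre+ cells. The untreated genotypes did not overlap, as was true of 11.7% of all genes tested in this direction, and after LPS they overlapped because replicate 3 was low in both genotypes. The ratio within a replicate number was 1.66 to 2.54.
With the block, the difference passed in untreated cells (log2 fold change 1.08, SE 0.16, edgeR adjusted p = 0.00595) and after LPS (0.76, SE 0.13, adjusted p = 0.0156). Without the block, it was 1.09 (SE 0.26, adjusted p = 0.136) and 0.74 (SE 0.49, adjusted p = 0.683). With the offset for exon length added to the block, it was 0.25 (SE 0.15, adjusted p = 0.305) and 0.09 (SE 0.13, adjusted p = 0.732), so the calls were lost. The exon length of Cstb is 603 bases.

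With LPS, Cstb had higher CPM than in the same-numbered untreated library in all 6 pairs, by 1.24 to 2.96 times in fl/fl Cre- and 1.16 to 1.94 times in fl/fl Cre+ cells. The log2 fold change was 1.06 (SE 0.41, edgeR adjusted p = 0.175) in fl/fl Cre- and 0.72 (SE 0.37, adjusted p = 0.321) in fl/fl Cre+ cells. Without fl/fl Cre- LPS replicate 3, it was 1.38 (SE 0.26, adjusted p = 0.0161) in fl/fl Cre- cells. The changes in the genotypes differed by -0.27 (SE 0.58, adjusted p = 1.00).

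Cst3 (ENSMUSG00000027447, chr2:148713642-148717612), encoding secreted cystatin C, was among the most abundant transcripts. It had 3741, 2631 and 1043 CPM in fl/fl Cre- and 6808, 3957 and 2158 CPM in fl/fl Cre+ replicates 1, 2 and 3. After LPS it had 6582, 8006 and 2278 CPM in fl/fl Cre- and 8461, 7888 and 3926 CPM in fl/fl Cre+ cells. Replicate 3 was the lowest in each group and the groups overlapped in all 4 comparisons.
In untreated cells each fl/fl Cre+ library exceeded its fl/fl Cre- counterpart by 1.50 to 2.07 times, and the difference passed with the block (log2 fold change 0.89, SE 0.17, edgeR adjusted p = 0.0129) but not without it (0.84, SE 0.57, adjusted p = 0.496) nor with the length offset (0.26, SE 0.19, adjusted p = 0.415). After LPS it was 0.24 (SE 0.52, adjusted p = 0.918). With LPS Cst3 rose in fl/fl Cre- cells in the fit with the block (1.19, SE 0.22, adjusted p = 0.0255; SE 0.61, adjusted p = 0.282 without it), and the value with the length offset was 1.07 (SE 0.18, adjusted p = 0.0213). In fl/fl Cre+ cells it was 0.60 (SE 0.46, adjusted p = 0.514; 0.68, SE 0.20, adjusted p = 0.0528 with the block), and the interaction was -0.54 (SE 0.83, adjusted p = 1.00).

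Counted over members, edgeR without a block called 0 in any comparison. Between genotypes, where Csta2 is not counted, 0 of 6 were called in untreated cells and 0 of 6 after LPS, against 0% of 12876 and 0% of 12441 genes tested, with 1 and 0 members at an unadjusted p under 0.05. For LPS, 0 of 7 were called in fl/fl Cre- cells (3.89% of 12744 genes) and 0 of 7 in fl/fl Cre+ cells (3.99% of 12687 genes), with 2 and 1 at an unadjusted p under 0.05, and for the interaction 0 of 7 (0% of 13752 genes), with 1. Csta2 is among these 7, and its level in these libraries served to choose it. The LPS counts that hold Csta2, here and below, are thus not independent of that choice. DESeq2 without a block called Cstb between untreated genotypes, Stfa2l1 for LPS in fl/fl Cre- and Csta2 for LPS in fl/fl Cre+ cells, and 0 members between genotypes after LPS and in the interaction, against 6.73%, 15.5%, 13.2%, 2.52% and 0% of all genes in these 5 tests. With the block, edgeR called 2 of 6 (Cstb and Cst3, both higher) in untreated cells, where 20.2% of all genes were called, 12.1% as higher. After LPS it called 1 of 6 (Cstb, higher), against 10.1% of all genes, 6.98% as higher. For LPS it called 2 of 7 in fl/fl Cre- cells (Cst3 higher and Stfa2l1 lower, against 12.8% of all genes, 6.33% as higher and 6.43% as lower) and 1 of 7 in fl/fl Cre+ cells (Csta2, higher, against 20.2% of all genes, 10.2% as higher), and 0 of 7 in the interaction (0% of all genes, 1 at an unadjusted p under 0.05). With the length offset added, 0 of 6 were called in untreated cells and 0 of 6 after LPS (11.6% and 6.78% of all genes), 2 of 7 for LPS in fl/fl Cre- cells (13.7%), and Csta2 and Cstb, 2 of 7, in fl/fl Cre+ cells (21.1%). With replicates 1 and 2 only, without a block, the counts were 1 of 6 (10.6% of all genes), 0 of 6 (4.22%), 5 of 7 (Csta2, Cstb and Cst3 higher, Stfa3 and Stfa2l1 lower; 47.5%) and 0 of 7 (15.9%).

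**Figure D5:**
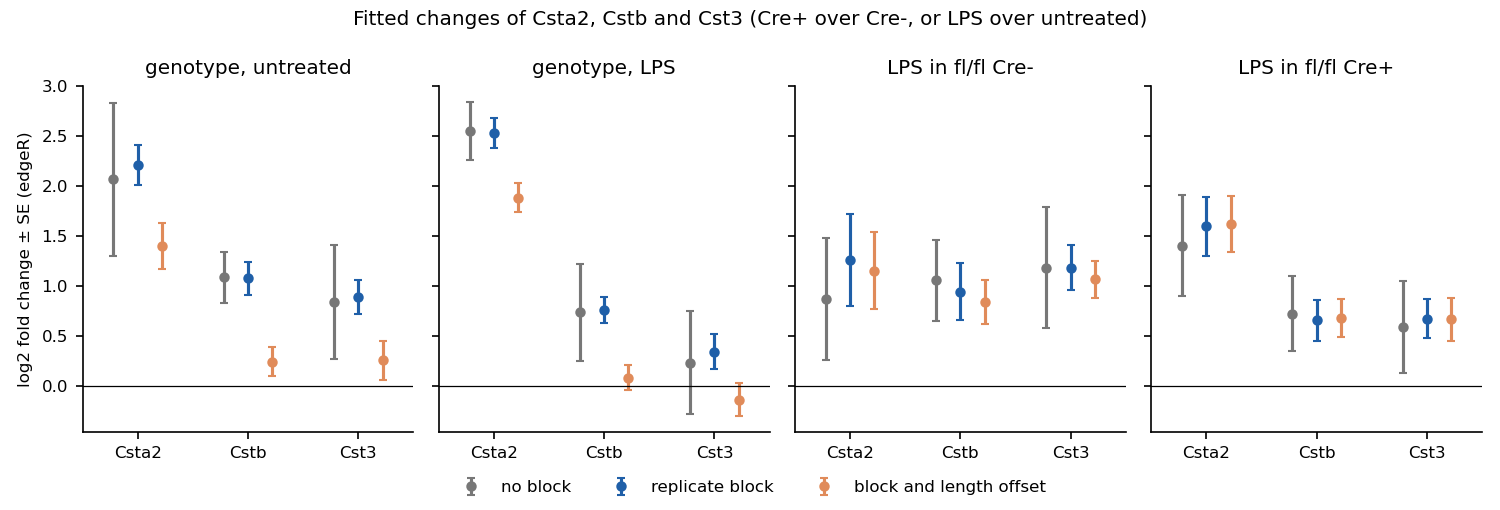
Log2 fold changes ± SE from edgeR for Csta2, Cstb and Cst3 in 4 comparisons, without a block, with the replicate block, and with the block and an offset for exon length. The length offset lowers the genotype differences (Cstb in untreated cells from 1.08 to 0.25) and leaves the LPS changes nearly as they were; the genotype values of Csta2 are a description.

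Of the other cystatins listed, 15 of 16 symbols were in the tables and 2 (Cst6 and Cst7) had enough reads to be tested. Cst7, encoding cystatin F, which acts in endosomes and lysosomes, had 2.80, 3.21 and 10.2 CPM in fl/fl Cre- cells and 115, 155 and 20.5 CPM after LPS, and 4.52, 1.77 and 23.6 CPM and 78.3, 102 and 33.1 CPM in fl/fl Cre+ cells. All LPS libraries lay above the untreated libraries of their genotype, as was true of 13.6% (fl/fl Cre-) and 14.8% (fl/fl Cre+) of all genes tested. The log2 fold change with LPS was 4.17 (SE 0.88, edgeR adjusted p = 0.0502) in fl/fl Cre- and 2.76 (SE 0.92, adjusted p = 0.143) in fl/fl Cre+ cells (3.49, SE 1.02, adjusted p = 0.0528 with the block, and 3.47, SE 0.98, adjusted p = 0.0473 with the length offset).

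Of the 11 cysteine proteases that these inhibitors bind or that belong to the same pathway, 10 were tested and 0 were called by edgeR without the block in any comparison, against 0% of all genes between genotypes in either state, 3.89% and 3.99% for LPS in fl/fl Cre- and fl/fl Cre+ cells, and 0% in the interaction. The median log2 fold change was 0.01 between untreated genotypes and -0.34 after LPS (all genes, -0.05 and -0.11), and 0.31 and -0.01 for LPS in fl/fl Cre- and fl/fl Cre+ cells (all genes, -0.02 and -0.01). With the block, 1, 1, 2 and 3 of 10 were called in the 4 comparisons, against 20.2%, 10.1%, 12.8% and 20.2% of all genes. Ctsh, encoding the aminopeptidase cathepsin H, was higher in untreated fl/fl Cre+ cells (0.86, SE 0.15, edgeR adjusted p = 0.00877), and Ctsb, encoding cathepsin B, was lower in fl/fl Cre+ cells after LPS (-0.74, SE 0.15, adjusted p = 0.0271). Ctsz and Ctsk, encoding cathepsins Z and K, rose with LPS in both genotypes with the block (Ctsz by 0.98 and 0.93, adjusted p = 0.0296 and 0.0127; Ctsk by 1.08 and 1.32, adjusted p = 0.0446 and 0.0433), and Ctso fell by 1.17 in fl/fl Cre+ cells (adjusted p = 0.0155). With the length offset, Ctsh kept its call (0.60, adjusted p = 0.0435) and Ctsb lost it (-0.56, adjusted p = 0.0876). Under that setting Ctsz was lower in fl/fl Cre+ cells, both untreated (-0.63, adjusted p = 0.0337) and after LPS (-0.58, adjusted p = 0.0425), and Lgmn, encoding legumain, was lower in untreated fl/fl Cre+ cells (-0.63, adjusted p = 0.0435). Ctss was not called in any of these fits.

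Genes lying within 500 kb of the outermost stefin A members or between them were sought, since Csta2 lies in the middle of that cluster. The neighbours tested in the comparisons below all lay outside the outermost members, so genes between the copies were not compared. Without the block 0 of 15 neighbours were called between untreated genotypes and 0 of 17 after LPS (0% of all genes in both). With the block 5 of 15 and 3 of 17 were higher in fl/fl Cre+ cells and 0 were lower, with median log2 fold changes of 0.17 and 0.19, against 12.1% and 6.98% of all genes called as higher. The neighbours were not compared with the length offset, under which Cstb and Cst3 lost their genotype calls. Cd86, encoding a costimulatory ligand of T cells, was among both, with 1.11 (SE 0.15, edgeR adjusted p = 0.00437) and 1.33 (SE 0.13, adjusted p = 0.00641). With LPS 4 of 17 neighbours were higher in fl/fl Cre- and 5 of 17 in fl/fl Cre+ cells without the block (2.06% and 2.23% of all genes), and 4 of 17 and 8 of 17 with it (6.33% and 10.2%).

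Across the 12 libraries, the level of Csta2 was most like that of Camta1 (Pearson's r = 0.95), Emc4 (0.95), Gm10076 (0.95), Sike1 (0.95) and Itgb1bp1 (0.94) among 13745 genes other than stefin A genes. Cstb was most like Arpc3 (0.98), Vamp8 (0.98), Cdc26 (0.98), Cript (0.97) and Pmpcb (0.97), and Cst3 most like Ppdpf (0.97), Csrp1 (0.97), Mmp20 (0.97), M1ap (0.97) and Commd9 (0.97). These are descriptions over libraries that share groups and replicate numbers. Gm10076 (0.388 to 3.32 CPM) and Mmp20 (0 to 1.26 CPM) were read rarely. Among the members, r was 0.84 between Cstb and Cst3, 0.58 between Csta2 and Cstb, 0.34 between Csta2 and Cst3, and between -0.15 and 0.01 between Csta2 and the other stefin A members.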

How the data were processed

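MHCII+ BMDCs were measured by RNA-seq in 12 libraries. The authors mapped reads in CLC Genomics Workbench with default settings to GRCm39 per the study's methods (the labels list GRCm38, but the deposited coordinates match GRCm39). They deposited raw counts per gene, as total and unique gene reads, and RPKM, which the authors scaled by exon length and mapped reads. RPKM served only to compare levels between genes. The Ensembl release is not given in the sources used here.

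Total gene read counts were tested with edgeR 4.0.16 in R 4.3.3 (quasi-likelihood test, TMM, minimum count 10, Benjamini-Hochberg adjustment over all genes, threshold 0.05) on the 6 libraries of a comparison, or all 12 for the interaction. The SE is the log2 fold change over the square root of F. For the block, libraries were paired by the replicate number in their labels. The check given in the report did not establish this pairing for replicates 1 and 2. The length offset is a lowess curve (span 0.3) of the log CPM of a library on log exon length. DESeq2 1.42.0, RLE, library size only, no filter, a minimum count of 50, unique reads and left-out libraries were alternatives. Replicates 1 and 2 alone, and unique reads, library size or DESeq2 with the block, were chosen after seeing the data, like most settings for the stefin A sum. Procedures were tested on simulated counts. Alignments were global (match 1, mismatch -1, gap -3 and -1).

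The members and lists were chosen with earlier results of these data known. Named were the members, up to 4 list genes past the threshold with the smallest adjusted p, and the 5 genes most like Csta2, Cstb and Cst3; Cst7, Cstdc4 and Cd86 values were also chosen after being seen. Marker lists were described by their summed CPM.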

Additional observations from a re-analysis of the deposited data

How the results depend on the processing

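Without a block, 0 members were called under RLE factors, library size only, no filter, a minimum count of 50, unique reads or all 12 libraries in 1 fit. Between untreated genotypes, 1 member (Cstb) was called by DESeq2, with replicates 1 and 2 only, and with the block and library size only, and 2 (Cstb and Cst3) with the block, with the block and unique reads, and with the block in DESeq2. Of 12876 genes tested with the block and library size only, 701 were called as higher and 3882 as lower. These counts were 1573 and 1049 of 12669 with the block and unique reads, and 1873 and 1435 of 12876 with the block in DESeq2. Between genotypes after LPS, 1 (Cstb) was called with the block in edgeR, in DESeq2, with unique reads and with library size only. Among all genes, DESeq2 with the block called 1303 as higher and 690 as lower of 12441. The block gave 911 and 456 of 12225 with unique reads, and 590 and 2052 of 12441 with library size only. For LPS in fl/fl Cre- cells, 1 was called by DESeq2, 2 with the block, also with the length offset, unique reads or library size only, 4 with the block in DESeq2 and 5 with replicates 1 and 2 only. Replicates 1 and 2 only called 47.5% of all genes there. DESeq2 with the block called 1659 as higher and 1610 as lower of 12744. The block gave 835 and 845 of 12516 with unique reads, and 476 and 1145 of 12744 with library size only. Leaving out each library in turn gave 0 to 1 member. The 1 was Cstb without fl/fl Cre- LPS replicate 3, where 1613 of 13206 genes were called as higher and 1655 as lower. For LPS in fl/fl Cre+ cells, 1 was called by DESeq2 and with the block, also with unique reads or library size only, 2 with the block and length offset, and 3 with the block in DESeq2. DESeq2 with the block called 1810 genes as higher and 1729 as lower of 12687. The block gave 1310 and 1291 of 12484 with unique reads, and 884 and 1864 of 12687 with library size only. Csta2, chosen by its level in these libraries, is counted among the members for LPS. Shares of all genes for the other settings with calls are given in the Results. The interaction gave 0 throughout. The replicate block changed no other call of a member.

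The stefin A sum with LPS in fl/fl Cre+ cells was 1.47 with the block, 1.50 with the length offset, 1.48 in DESeq2, 1.26 with library size only and 1.47 with unique reads, all with the block and past the threshold. In fl/fl Cre- cells it was -0.0348 with library size only, and -0.22 to 0.71 with a library left out. The lowest unique share of Stfa1 was 75% (6 of 8 reads) and 100% among libraries with 20 reads or more. Cst3 after LPS turned to -0.13 between genotypes with the block and length offset (-0.16 to 0.57 with a library left out).

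With a library left out, direction also changed, always without a call, for the interaction of Csta2 (-0.45 to 1.01), Cstb (-0.72 to 0.0943), Stfa1 (-1.74 to 1.41) and Stfa3 (-0.0118 to 2.81), for the untreated genotypes in Stfa1 (-0.0669 to 2.41), Stfa2l1 (-2.09 to 0.45) and Stfa3 (-1.33 to 1.46), and for Stfa3 with LPS in fl/fl Cre- (-2.61 to 0.15) and fl/fl Cre+ cells (-0.55 to 0.66). The cause was not tested. Stfa1, Stfa2, Stfa3 and Stfa2l1 rest on 277 to 681 reads over all 12 libraries, so small differences in them were not detectable. Scaling by library size only shifted all genes, to a median log2 fold change of -0.44, -0.37, -0.32, -0.23 and 0.07 in the 5 tests.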
